A study of Arabidopsis thaliana with 12 samples.

Results

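The subject is a stretch of Arabidopsis chromosome 1 around CHL1, the gene mutated in chl1-5 plants. CHL1 (AT1G12110, also called NRT1.1) encodes a nitrate transporter of the root plasma membrane. It is also known as a nitrate sensor that adjusts the transcription of nitrate-responsive genes, and chl1-5 is known from genetic work as a deletion allele of it. Members were the 72 probe sets with 1 annotated gene whose locus name lies from AT1G11000 to AT1G12200, and 2 probe sets without an annotated gene, whose numbers fall among theirs. The latter are called A (the lower number) and B (the higher number), and their identifiers head the panels of the plot of signal per array. A and B were chosen by their measured difference between chl1-5 and wild type, the annotated members by locus name. These 74 belong to the 22746 probe sets of the array that are not controls. The annotated members stand for 72 different loci, among the 134 protein-coding loci that the TAIR10.1 gene table places in this range. No probe set used here carried CHL1 as its annotated gene, so the mutated gene was not checked by name.

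RNA came from roots of 10-day-old plants of the Columbia ecotype, either wild type or chl1-5, hybridised to 1-colour Affymetrix ATH1 arrays. All plants were raised on 12.5 mM ammonium succinate as their nitrogen source and spent 3 h in that medium at a lower pH. At T0 the roots were taken after washing, without nitrate, and at T0.5 after 0.5 h in medium with 25 mM KNO3 in place of the ammonium salt. Each of the 4 groups (wild type T0, wild type T0.5, chl1-5 T0, chl1-5 T0.5) had 3 arrays, and each replicate pooled about 900 seedlings from 9 vessels, both genotypes growing on shared meshes. Between T0 and T0.5 the plants thus also lost their ammonium supply and were moved. Roots hold many cell types, so fewer cells of a type and less RNA per cell cannot be told apart.

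The values are MAS5 signals on a linear scale, scaled by the authors to the same trimmed mean per array. Differences are given on the log2 scale, with signals under 0.1 raised to 0.1. A probe set was tested when its signal reached the 40th percentile of the array (98.3 to 111.2 signal units) on at least 3 arrays, and it is called dim in a group when all 3 arrays lay under that percentile. A difference was called at a limma adjusted p under 0.05 (Benjamini-Hochberg over all 14291 probe sets tested). The tissue label was checked with 2 listed root genes that had a named probe set. PYK10, a beta-glucosidase of root cells, and EXPA7, an expansin of root hair cells, had mean signals of 17231 to 19150 and of 757 to 1299 in the 4 groups. The shoot gene RCA, the only listed shoot marker with a named probe set, had 609 to 637, and none of the 3 differed between genotypes by the test. EXPA7 fell from T0 to T0.5 in both genotypes (-0.79 and -0.73, SE 0.17, limma adjusted p = 0.0172 and 0.0334), and whether this bears on the changes of other genes between the times was not tested. Of 18 loci put on a list of nitrate transport genes 4 had a named probe set (NRT2.5, AT4G24730, AT3G21670 and AT2G26690), and none of the 4 passed in any comparison. All but NRT2.5 carried only a locus name, and whether AT4G24730 belongs on such a list was not checked.

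The 2 unannotated probe sets had very low signal in chl1-5 at both times. They were chosen for this difference, so it is described here without a test. The signal of A in wild type was 1674, 1887 and 1554 at T0 and 7637, 7124 and 5492 at T0.5. In chl1-5 it was 7.20, 48.7 and 24.5 at T0 and 93.8, 229.4 and 53.6 at T0.5. Every chl1-5 array lay far below every wild-type array, and the highest chl1-5 value was that of replicate 2 at T0.5.

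The signal of B in wild type was 4051, 4934 and 3008 at T0 and 4363, 3276 and 2697 at T0.5. In chl1-5 it was 30.7, 121.3 and 56.6 at T0 and 53.1, 118.5 and 14.8 at T0.5. Again no array of one genotype reached the range of the other, and replicate 2 held the highest chl1-5 value at both times. Set against the wild-type array with the same replicate number and time, the chl1-5 signal of A came to between 0.430% and 3.22%, and that of B to between 0.549% and 3.62%.

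On the log2 scale chl1-5 minus wild type was -6.37 at T0 and -5.99 at T0.5 for A, and -6.04 and -6.22 for B. These sizes rest on mutant signals near or under background. A was dim in chl1-5 at T0, and only replicate 2 of chl1-5 carried either probe set above the 40th percentile of its array. With each chl1-5 signal raised to at least that percentile, A was at least 16.2-fold lower in chl1-5 at T0 and 48.8-fold at T0.5, and B at least 36.2-fold and 30.7-fold. With signals raised to 32 in place of 0.1, the T0 difference of A was -5.53. It was -5.62 without the T0 array of chl1-5 replicate 1 and -7.00 without that of replicate 2, and the T0.5 difference of B was -5.41 when chl1-5 replicate 3 at T0.5 was left out and -6.91 when replicate 2 was.

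**Figure D1:**
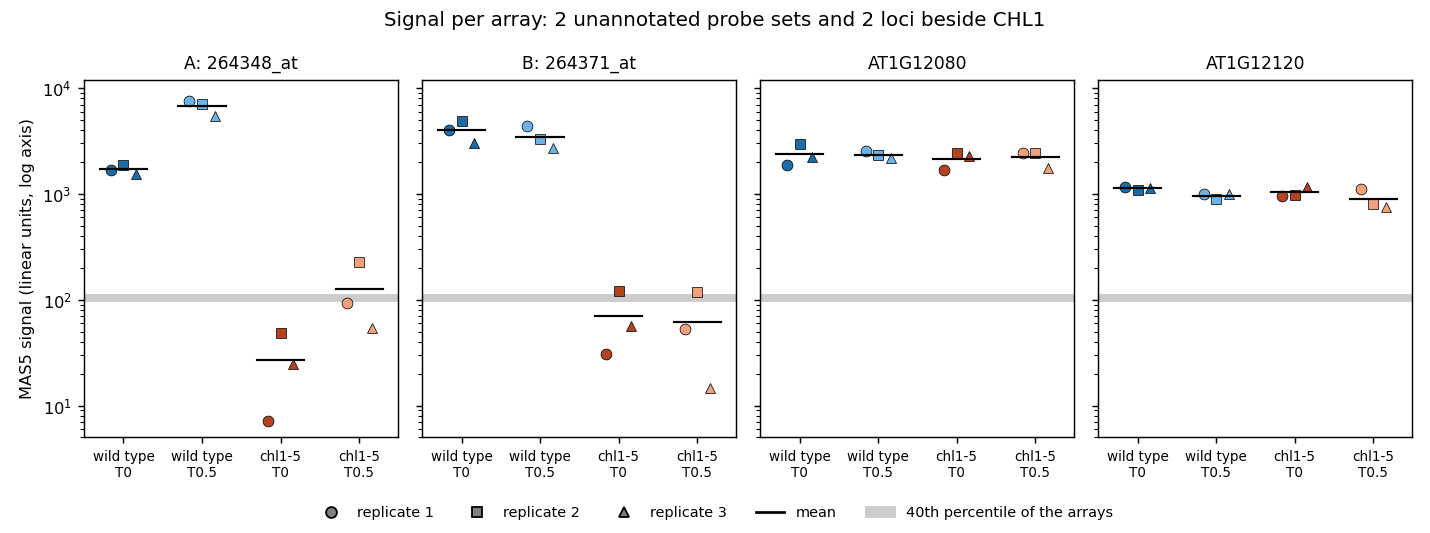
MAS5 signal of every array (log axis) for A, B and the tested loci next to CHL1 on either side, AT1G12080 and AT1G12120, with a point per array, a bar at the group mean and a grey band at the 40th percentile of the arrays. In the left pair of panels no wild-type point lies under 1554 and no chl1-5 point over 229.4, while those of the right pair overlap the wild-type points.

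The tested loci closest to CHL1 showed no such loss. By locus number the nearest members below CHL1 are AT1G12070, AT1G12080 and AT1G12100, and the nearest above are AT1G12120, AT1G12130 and AT1G12150. AT1G12080 had signals of 1865, 2994 and 2233 at T0 and 2539, 2343 and 2163 at T0.5 in wild type. In chl1-5 it had 1699, 2448 and 2304 at T0 and 2449, 2420 and 1775 at T0.5, so the genotypes overlapped at both times. Its mean difference over both times was -0.11 (SE 0.13, 95% interval -0.40 to 0.18, n = 3 arrays per group, limma adjusted p = 1.00).

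AT1G12120 had signals of 1169, 1096 and 1143 at T0 and 997, 898 and 988 at T0.5 in wild type. In chl1-5 it had 953, 980 and 1163 at T0 and 1117, 797 and 759 at T0.5. The groups overlapped here too, although 2 of the 3 chl1-5 arrays lay under the lowest wild-type array at each time. The mean difference of AT1G12120 was -0.14 (SE 0.10, 95% interval -0.36 to 0.08, limma adjusted p = 1.00). For both loci the whole interval excludes a halving of the signal. Between AT1G12080 and AT1G12120 the TAIR10.1 annotation places 3 protein-coding loci, CHL1 among them.

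The other 4 of these neighbours gave too little signal to show a loss. AT1G12100 ranged from 1.90 to 33.0 over the 12 arrays, AT1G12130 from 1.00 to 15.8 and AT1G12070 from 18.9 to 55.3. AT1G12150 ranged from 36.6 to 101.9, and only 1 wild-type array reached the 40th percentile. Their genotypes cannot be compared at this signal, since wild type was dim or nearly dim as well.

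Over the rest of the stretch the genotypes were close. Of the 72 annotated members 40 were tested, and none was called in chl1-5 against wild type at T0, at T0.5 or in the mean over both times. The background is 0.028% of all probe sets called at T0, 0.224% at T0.5 and 0.07% for the mean, so a count of 0 among 40 is near what the whole table gives. At an unadjusted p under 0.05 there were 2 members at T0, 1 at T0.5 and 3 for the mean, all higher in chl1-5, against backgrounds of 0.938%, 2.9% and 1.98%. Among the 3 for the mean is AT1G11900, which passed the signal filter only through its chl1-5 arrays. The mean differences of the 40 ran from -0.23 to 0.36 with a median of 0.02, where all probe sets had a median of 0.00. With the replicate number as a block, none of the 40 was called either. At an unadjusted p under 0.05 the block gave 2 members at T0, 4 at T0.5 and 5 for the mean. Over all 14291 probe sets it gave 331, 798 and 592. Lower in chl1-5 among these members were AT1G11930 (-0.24 at T0.5, -0.14 in the mean) and AT1G12010 (-0.30 and -0.23).

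In 39 of the 40 the 95% interval of the mean difference lay inside a 2-fold change in either direction, and in 39 of the 40 it excluded a loss by 2-fold or more. Over all 14291 probe sets tested, 14071 had an interval of the mean inside a 2-fold change. At the single times a loss of that size was excluded for 38 members at T0 and 39 at T0.5. The exceptions were AT1G12010 at both times and in the mean (interval of the mean -1.17 to 0.71) and AT1G11050 at T0 (interval -1.14 to 1.01). With the replicate number as a block, the intervals of all 40 excluded it at T0, at T0.5 and in the mean, that of the mean of AT1G12010 being -0.44 to -0.03. Over all probe sets tested, 0.903% had an interval of the mean that reached a 2-fold loss in the main fit, 3.29% at T0 and 3.27% at T0.5. With the block such intervals numbered 36 of 14291 for the mean, 179 at T0 and 217 at T0.5. The counts for the 40 are thus near those of the whole table. None of the 40 was lower in chl1-5 without overlap of the arrays at both times, where the background is 0.126%. At T0 alone 1 of them was lower and 4 were higher without overlap, against 3.21% and 1.98% of all probe sets, and at T0.5 alone 0 were lower and 3 higher, against 3% and 3.46%. The higher ones at each time include AT1G11900, which passed the signal filter only through its chl1-5 arrays.

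**Figure D2:**
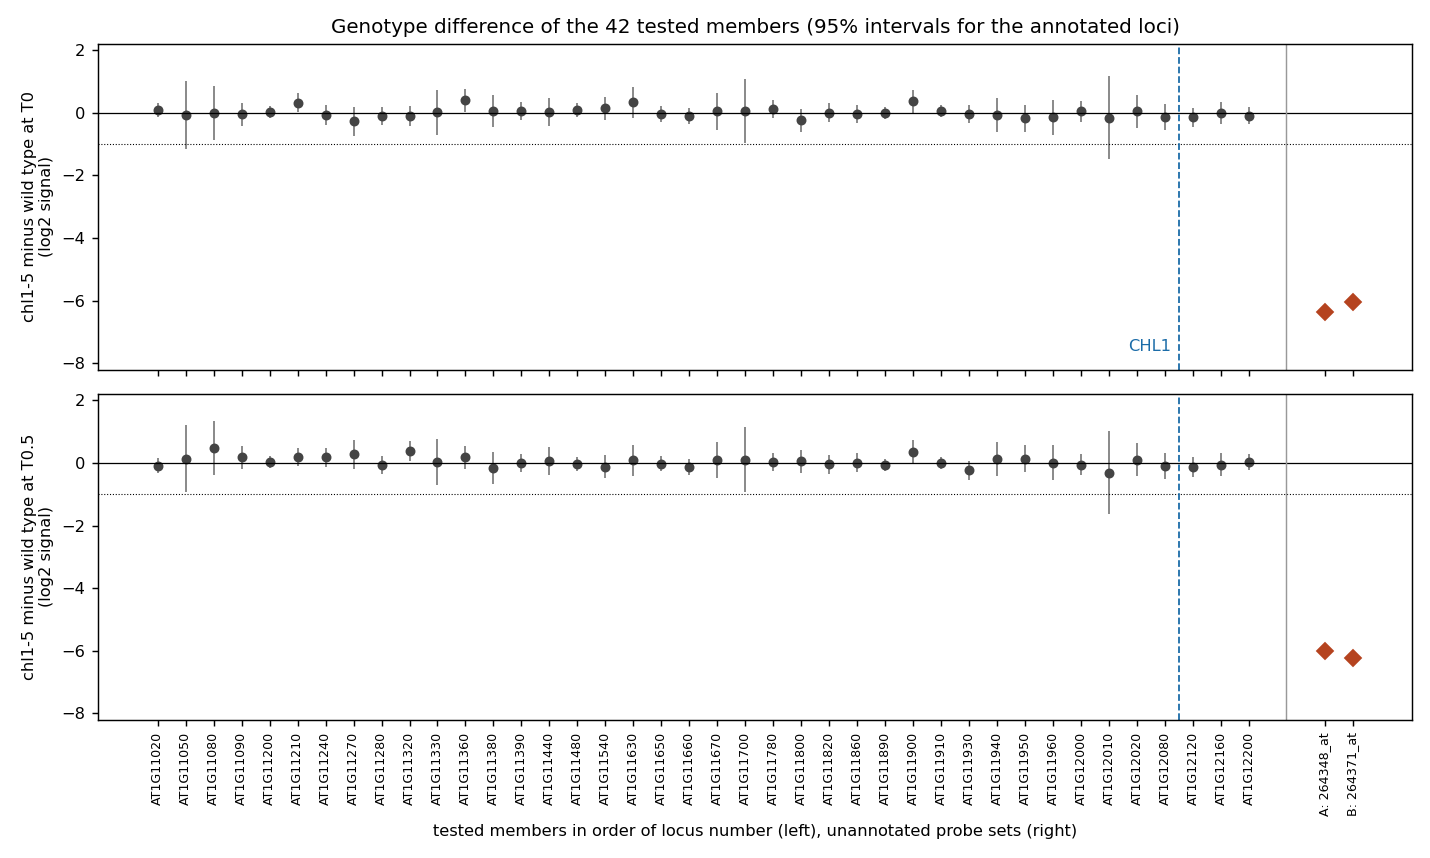
Difference of chl1-5 from wild type (log2 signal) at T0 (top) and T0.5 (bottom) for the 40 tested annotated members in order of locus number, with limma 95% intervals, and for the 2 unannotated probe sets, shown without interval because this difference chose them; dashed, the place of CHL1 in the order, and dotted, a loss by 2-fold. All annotated members lie between -0.30 and 0.47, and both unannotated ones lie near -6.

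The annotated members farthest from 0 had positive differences, and none passed the test. AT1G11900 had wild-type signals of 98.2, 91.0 and 103.5 at T0 and 94.5, 80.8 and 96.8 at T0.5. Its chl1-5 signals were 120.2, 128.5 and 128.0 at T0 and 118.9, 131.2 and 101.1 at T0.5. All chl1-5 arrays lay above all wild-type arrays at both times, as in 0.077% of all probe sets, and this was the only one of the 40 members to do so. The mean difference was 0.36 (SE 0.12, n = 3 arrays per group, 1.29-fold), with an unadjusted p = 0.0104 and a limma adjusted p = 1.00. The wild-type groups were dim, so AT1G11900 passed the signal filter only through its chl1-5 arrays, where it is high. Its separation and its p are therefore a description and no evidence of a difference.

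AT1G11360 had signals from 593 to 801 on the 6 wild-type arrays and from 639 to 1160 on the 6 chl1-5 arrays, with no overlap at T0 and overlap at T0.5 (mean difference 0.29, SE 0.12). AT1G11210 had 164.0 to 179.9 in wild type and 208.4 to 230.1 in chl1-5 at T0, and 207.5 to 248.7 and 230.7 to 304.0 at T0.5 (mean difference 0.26, SE 0.10). Neither passed (limma adjusted p = 1.00 for both). scpl31 (AT1G11080), a member of the serine carboxypeptidase-like family, had a mean difference of 0.23 (SE 0.28), and AT1G11630 one of 0.21 (SE 0.16).

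On the other side AT1G12010 had the lowest mean difference, -0.23 with an SE of 0.43 (limma adjusted p = 1.00). With the replicate block the SE was 0.094 (unadjusted p = 0.0297, adjusted p = 1.00). Without the block, leaving out the wild-type T0 array of replicate 3, which carried a high signal, turned the difference to 0.030. AT1G11930 stood at -0.14 (SE 0.10) and AT1G11660 at -0.11 (SE 0.08), besides AT1G12120 and AT1G12080 above. RBP45B (AT1G11650), an RNA-binding protein, differed by -0.03 (SE 0.08). SEC22 (AT1G11890), a SNARE protein of traffic between the endoplasmic reticulum and the Golgi, differed by -0.04 (SE 0.06). APA1 (AT1G11910), an aspartic proteinase, differed by 0.02 (SE 0.06).

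The remaining 32 annotated members were not tested. In 29 of them no array reached the 40th percentile, and the highest signal among the 32 was 119.5. None of the 32 was separated between genotypes in the same direction at both times. At T0 AT1G11915 and CRR22 (AT1G11290), a gene for a plastid RNA editing factor, were lower in chl1-5 without overlap and AT1G11125 was higher. At T0.5 NTL (AT1G11570) and AT1G12100 were lower and AT1G11730 and AT1G12180 higher. These 2 lower and 1 higher at T0 stand against 5.77% and 3.25% of the 8455 probe sets not tested, and the 2 and 2 at T0.5 against 2.96% and 5.7%, and the names were chosen after their values were seen. CRR22 had mean signals of 65.7 ± 8.91 (SD, n = 3) in wild type and 22.8 ± 10.5 in chl1-5 at T0, and of 53.0 ± 27.2 and 32.2 ± 18.6 at T0.5, all dim. At these levels a loss would hardly be detectable.

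The loci on both sides of the stretch gave the same picture. From AT1G09800 to AT1G10990, 39 of 61 annotated probe sets were tested, with mean genotype differences from -0.22 to 0.21. From AT1G12210 to AT1G13400, 34 of 54 were tested, with mean differences from -0.20 to 0.20. None was called in any genotype comparison, where the background is 0.028% at T0, 0.224% at T0.5 and 0.07% for the mean. All 73 intervals of the mean lay inside a 2-fold change, as did 14071 of the 14291 over all probe sets. These counts are near those of the whole table. At the edges of the range, AT1G10990 just below it stood at 0.21 (SE 0.24) and AT1G11020 just inside at 0.00 (SE 0.08). FMO (AT1G12200), a flavin monooxygenase and the last locus inside, stood at -0.03 (SE 0.09), and AT1G12230, just above the range, at -0.03 (SE 0.08).

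Probe set numbers do not fix a locus. The run of numbers that holds A and B has 56 probe sets, of which 36 have 1 annotated gene, and only 20 of these 36 are members. Another 16 in this run have no annotated gene, apart from A and B. Of the 16, 13 were tested, with mean genotype differences from -0.17 to 0.15. None of these 13 was called between genotypes, near the background of 0.028% at T0, 0.224% at T0.5 and 0.07% for the mean. Among them are the probe set numbered just below A, which differed by 0.01 (SE 0.20), and the one numbered just above B, which differed by 0.03 (SE 0.09).

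A loss at both times was rare in the whole table. Besides the 2 members, 1 of the 14291 probe sets was lower in chl1-5 by at least 2-fold at both times without overlap of the arrays at either, which with the 2 members makes 0.021%. This was ATKDSA2 (AT1G16340), an enzyme for a sugar acid of the cell wall, a locus on the same chromosome outside the range and both flanks. Its signal was 296.0, 304.9 and 317.1 at T0 and 313.5, 306.2 and 292.5 at T0.5 in wild type. In chl1-5 it was 53.3, 10.9 and 39.7 at T0 and 25.7, 26.7 and 21.4 at T0.5. The mean difference of -3.53 (SE 0.31) stood between the pair and the other probe sets.

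Over the 12 arrays ATKDSA2 was the probe set most like the pair. Likeness was taken as Pearson's r of log2 signals with the mean of A and B, and it was 0.89 for ATKDSA2. AT4G34950 (r = 0.84), AT4G36750 (r = 0.79), AT1G16690 (r = 0.77) and AT1G09390 (r = 0.77) followed. These r are descriptive, since the 12 arrays share genotype and replicate number. The mean of A and B differs mostly by the genotype gap that chose them, so the ranking is not separate evidence beside that loss. The mean genotype differences of the 4 that followed were smaller, from -0.71 to -0.16. The pair correlated with each other at r = 0.92 over 12 arrays, which follows from the genotype difference that chose both. Over the 6 wild-type arrays r was -0.20. These pool both times, between which the mean of A went from 1705 to 6751 and that of B from 3998 to 3445. This r therefore does not tell how A and B varied within a time. At each time the 3 wild-type arrays had the same order for A as for B. Values of r within a time, or over the chl1-5 arrays alone, were not computed.

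The change from T0 to T0.5 is a comparison that did not choose the members. The wild-type signal of A went from a mean of 1705 ± 168 to 6751 ± 1120 (SD, n = 3), and that of B from 3998 ± 964 to 3445 ± 846. All 3 wild-type T0.5 arrays of A lay above all 3 at T0. The log2 difference was 1.98 (SE 0.59, 3.93-fold, limma adjusted p = 0.0782), and adjusted p = 0.0170 with the replicate block. In a fit of the wild-type arrays alone the adjusted p was 1.91e-04. The fit over all arrays shares 1 spread per probe set, and for A that spread includes the scattered mutant signals. B differed by -0.21 (SE 0.63, adjusted p = 0.895), with overlap.

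In chl1-5 the weak signal of A was also higher at T0.5, at levels mostly under the 40th percentile. Its 3 arrays at T0.5 (53.6 to 229.4) lay above its 3 arrays at T0 (7.20 to 48.7), which the fit put at 2.36 (SE 0.59, limma adjusted p = 0.0481). No fold is given, because A was dim at T0 and reached the 40th percentile on 1 of the 3 arrays at T0.5. When only the mutant arrays were fitted, A missed the signal filter and was not tested. It passed the filter of the full fit through its wild-type arrays, where it is high. Its p in chl1-5 is therefore a description and no evidence of a change. The call in the fit of all arrays held in 2 of the 15 settings that left out 1 array or 1 replicate number, those without the T0 array of chl1-5 replicate 2 or the T0.5 array of chl1-5 replicate 3. The adjusted p over these 15 ran from 0.0181 to 0.201, and the difference from 1.60 (without the T0 array of chl1-5 replicate 1) to 2.98 (without that of replicate 2). With signals raised to 32 it was 1.51 (adjusted p = 0.0520). The responses of the genotypes differed by 0.38 (SE 0.84, 95% interval -1.45 to 2.21, adjusted p = 1.00), a sign that turned to -0.47 with signals raised to 32. Over so wide an interval the responses cannot be said to be alike. B stood at -0.39 in chl1-5 (SE 0.63, adjusted p = 0.825), with overlap of the arrays.

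**Figure D3:**
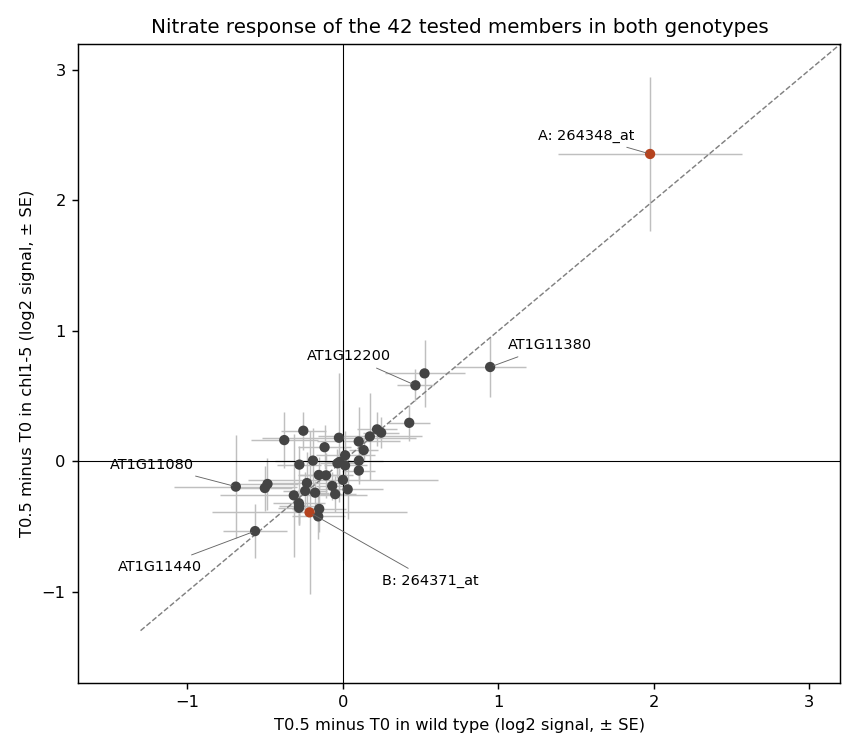
Change from T0 to T0.5 (log2 signal) in wild type (x axis) and chl1-5 (y axis) for the 42 tested members, with limma standard errors as bars, the 2 unannotated probe sets in red and a dashed line of equal change. A stands apart at 1.98 and 2.36, the latter from signals mostly under the 40th percentile, and AT1G11380 (0.95 and 0.72), AT1G11960 (0.53 and 0.67) and FMO (AT1G12200, 0.47 and 0.58) lie farthest up among the annotated members.

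Among the annotated members, FMO rose in both genotypes and AT1G11380 in wild type. FMO had signals of 1337, 1477 and 1378 at T0 and 1937, 2215 and 1675 at T0.5 in wild type. In chl1-5 it had 1402, 1384 and 1172 at T0 and 1783, 2085 and 2053 at T0.5, without overlap between times in either genotype. The rise was 0.47 in wild type (SE 0.12, 1.38-fold, limma adjusted p = 0.0431) and 0.58 in chl1-5 (SE 0.12, 1.50-fold, adjusted p = 0.0197), also with the replicate block (adjusted p = 0.0103 and 0.00330). The wild-type call was lost with quantile normalization (adjusted p = 0.0651), without the signal filter (0.0524), without the variance trend (0.0607) and with only the groups compared (0.0838), and the chl1-5 call with only the groups compared (0.0533). Of the 15 settings with an array or a replicate number left out the wild-type call held in 3 and the chl1-5 call in 10. The responses differed by 0.11 (SE 0.17, 95% interval -0.26 to 0.49).

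AT1G11380 had signals of 381.1, 419.8 and 413.5 at T0 and 544.7, 794.4 and 1097 at T0.5 in wild type. In chl1-5 it had 420.8, 396.4 and 447.8 at T0 and 517.8, 722.1 and 896.8 at T0.5. The times did not overlap in either genotype, and the arrays at T0.5 were widely spread in both. The change was 0.95 in wild type (SE 0.23, 1.93-fold, limma adjusted p = 0.0325) and 0.72 in chl1-5 (SE 0.23, adjusted p = 0.124, adjusted p = 0.0170 with the replicate block). The wild-type call held in 8 of the 15 settings and was lost with only the groups compared (adjusted p = 0.0608), and the responses differed by -0.23 (SE 0.33, 95% interval -0.94 to 0.49). AT1G11960 had changes of 0.53 in wild type and 0.67 in chl1-5 (SE 0.26, adjusted p = 0.292 and 0.198), and its times overlapped in both genotypes. It was named after its values were seen.

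In counts, 2 of the 40 annotated members rose in wild type and 1 in chl1-5, and none fell. The background is 3.44% of all probe sets called higher and 2.14% called lower in wild type, and 2.71% and 1.15% in chl1-5, so these counts are near those of the whole array. The median change of the 40 was -0.09 for wild type and -0.05 for chl1-5, beside -0.09 and -0.06 over all probe sets. With the replicate block 4 members were called in wild type and 6 in chl1-5, against backgrounds of 11.8% and 9.9%. Those added were scpl31 and AT1G11440 in wild type, and AT1G11380, AT1G11440, AT1G11540, APA1 and AT1G12160 in chl1-5, all lower at T0.5 but AT1G11380. Apart from AT1G11380, these were named after their values were seen.

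AT1G11440 had mean signals of 289.9 ± 54.3 and 198.0 ± 52.7 (SD, n = 3) at T0 and T0.5 in wild type, and of 293.9 ± 33.0 and 203.9 ± 35.0 in the mutant. The log2 changes were -0.56 and -0.54 (SE 0.21, limma adjusted p = 0.154 and 0.206, and 0.0280 and 0.0405 with the block). scpl31 stood at -0.69 in wild type (SE 0.40, adjusted p = 0.377, 0.0242 with the block) and at -0.20 in chl1-5. In chl1-5 APA1 stood at -0.24, AT1G12160 at -0.32 and AT1G11540 at -0.42, with block adjusted p of 0.0440, 0.0446 and 0.0243. These shifts are small. None passed in the main fit, which leaves out the pairing of arrays by replicate number.

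None of the 40 annotated members differed between genotypes in its response (background 0.035%), and 1 had an unadjusted p under 0.05 (background 1.94%). Of the 40, 20 were lower at T0.5 in both genotypes, 11 higher in both and 9 of opposite sign. Over all probe sets this was counted for each genotype alone. In wild type 25 of the 40 were lower, against 9584 of all 14291, and in chl1-5 24 were, against 8856. The directions are thus near those of the whole array.

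**Figure D4:**
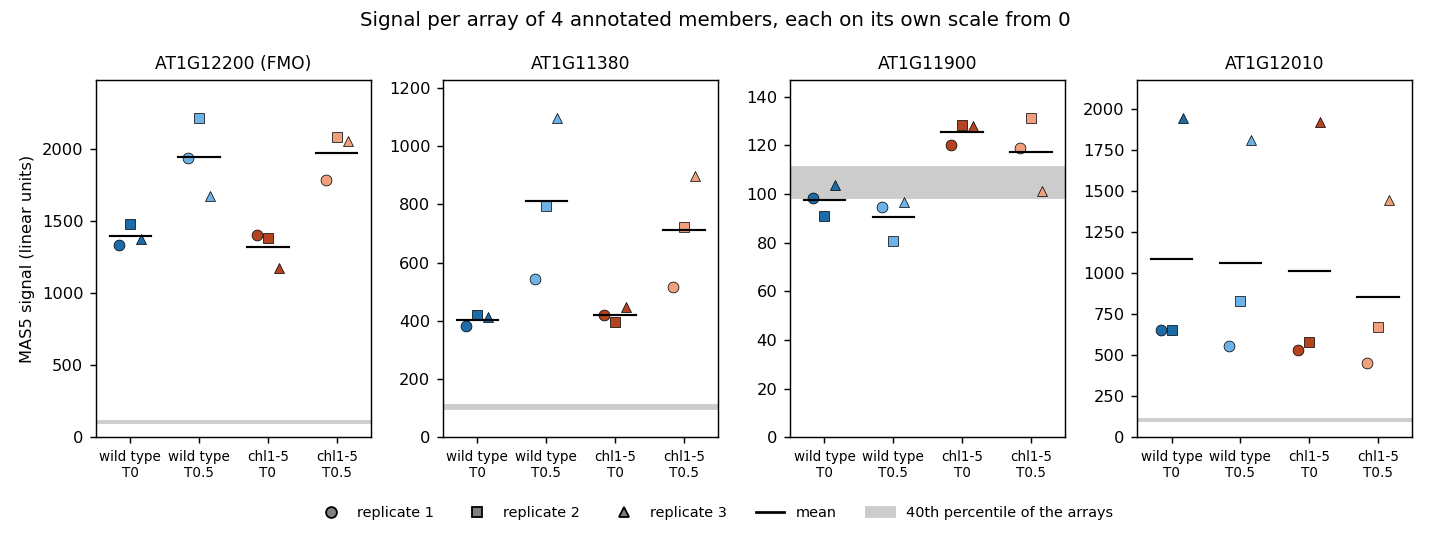
MAS5 signal of every array (linear axes from 0, each with its own scale) for FMO (AT1G12200), AT1G11380, AT1G11900 and AT1G12010, with a point per array, a bar at the group mean and a grey band at the 40th percentile. FMO and AT1G11380 are higher at T0.5 in both genotypes, AT1G11900 is higher in chl1-5 near the 40th percentile, and AT1G12010 is highest in replicate 3 of all 4 groups.

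The variation of the annotated members was split by its sources. In the balanced layout the sum of squares of each probe set splits into genotype, time, their interaction, replicate number and the rest. Over the 40 members the median share was 1.74% for genotype, 17.9% for time and 26.9% for replicate number, which has 2 degrees of freedom against 1 for each of the others. Over all probe sets tested these medians were 2.27%, 16.4% and 24.6%, so the members were close to the whole array. Replicate number took more than 50% in 10 members (25%, against 20.1% of all probe sets) and time in 8 (20%, against 16.6%).

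AT1G12010 was the extreme, with 94.4% of its variation between replicate numbers. Its signal in replicate 3 was 1947 and 1812 in wild type and 1920 and 1444 in chl1-5 at T0 and T0.5. In replicates 1 and 2 it lay between 456.5 and 830.9 in all groups. The 4 arrays of replicate 3 thus stood well above the other 8, in both genotypes and at both times. AT1G11670 (87.8%) and AT1G11330 (82.0%) also followed the replicate number, both lowest in replicate 1, and AT1G11700 (69.4%) was lowest in replicate 3. RBP45B followed it at 72.2% over a narrow range, with replicate means from -0.11 to 0.11 around its average on the log2 scale.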

How the data were processed

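The authors' deposited table holds 1 linear signal intensity per probe set, made with MAS5 per the submitters' processing notes. Its version is not given in the sources used here. Trimmed means (2% at each end) were 499.4 to 500.6 on all arrays, so the arrays were already scaled. The 64 control probe sets of the 22810 were dropped. No pair of arrays held identical values. Precision is limited by having 3 arrays a group.

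Gene names came from the platform annotation table and, by gene number, from the TAIR10.1 table, used for names and order only. Of 22746 probe sets 13513 had 1 gene, 503 several and 8730 none listed. Of the annotated members 71 matched by gene number and 1 by locus name. The members and lists were chosen with earlier results of these data known. Members named with full values were the unannotated pair, those called in any comparison, the 5 largest mean genotype differences in each direction and the 3 nearest loci on each side of CHL1.

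Group means of the 4 groups were fitted to all 12 arrays with limma 3.58.1 in R 4.3.3, using moderated variances with an intensity trend. Tests were two-sided. The fit was tested on simulated data with 200 changed probe sets among 14291: for the mean genotype difference it called 93 of 100 changed 2-fold and 100 of 100 changed 4-fold, and 12 unchanged ones. Changes with nitrate were not simulated. The simulated arrays were drawn independently, without an effect of replicate number, so these counts need not hold for the real arrays, which share one. The real mean genotype difference had only 10 calls among 14291, which makes its Benjamini-Hochberg cutoff stricter than in the simulation. Recovery of a 2-fold change at that stricter cutoff was not simulated and would be lower. Replicate numbers were read from the titles, and the growth protocol in the labels calls each biological replicate an experiment of its own. Arrays of the same number deviated together from their group means in all 18 pairs (r from 0.21 to 0.77), so the numbers pair the arrays. Those of different numbers had r from -0.63 to -0.01. Deviations within a group sum to 0, so these negative r go with the positive ones and are no separate support. The main fit leaves this pairing out. With the block, the probe sets with an unadjusted p under 0.05 between genotypes went from 134 to 331 at T0 and from 414 to 798 at T0.5. A miss in the main fit can thus come from the pairing left out. Alternatives were the replicate block, 2 other scalings, a floor of 32, log2(signal + 16), no filter, a 60th percentile filter, no trend, only the groups compared, and leaving out each array or replicate number.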

Additional observations from a re-analysis of the deposited data

Results flagged for a closer look

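AT1G11320 had changes of opposite sign in the genotypes within every replicate number, although 1 chl1-5 pair hardly changed (144.9 and 146.2 in replicate 1). Its signal fell from T0 to T0.5 in the 3 wild-type pairs (mean 143.2 ± 9.64 to 120.0 ± 1.55, SD) and was higher at T0.5 in the 3 chl1-5 pairs (mean 132.9 ± 11.3 to 156.3 ± 14.3). The responses were -0.25 and 0.23 on the log2 scale. Their difference of 0.49 (SE 0.20) had an unadjusted p = 0.0341 and a limma adjusted p = 1.00, so it did not pass.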

How the results depend on the processing

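No annotated member was called in a genotype comparison or in the difference of responses under any alternative run, the replicate block included. The annotated members called in the wild-type response numbered 2, but 4 with the replicate block, 1 without the filter, 1 without the trend, 0 with only the groups compared and 0 to 3 with an array or replicate number left out. In chl1-5 the count of 1 became 6 with the block, 0 with only the groups compared and 0 to 4 with arrays left out. With the block, all probe sets called went from 797 to 1690 in wild type (819 higher, 871 lower) and from 552 to 1415 in chl1-5 (744 higher, 671 lower). Median scaling moved the median wild-type response from -0.09 to 0.01 and its split from 491 higher and 306 lower to 609 and 183.

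For the unannotated probe set A the T0 genotype difference was -5.53 with a floor of 32, -5.45 with log2(signal + 16) and -7.00 to -5.62 with arrays left out. Its wild-type response of 1.98 passed with the block, a floor of 32 and only the groups compared, and as 1.97 with log2(signal + 16) (range 1.87 to 2.12 with arrays left out). Its chl1-5 response missed the threshold at 2.25 under quantile normalization, at 1.51 with a floor of 32 and at 2.36 without filter or trend (range 1.60 to 2.98), it had no value with only the groups compared, and the difference of responses turned to -0.47 and -0.32 with the floor and the added constant (range -0.37 to 1.01). For B the T0.5 genotype difference ran from -6.94 to -5.41 and the chl1-5 response from -1.09 to 0.41, and the difference of responses from -0.87 to 0.63, with 0.17 at a floor of 32. With arrays left out, differences near 0 turned sign for AT1G12010 (-0.53 to 0.030, mean), AT1G12080 (-0.28 to 0.058 at T0, -0.18 to 0.055 at T0.5), and for the response differences of AT1G11380 (-0.48 to 0.020) and FMO (-0.091 to 0.27). The cause of these changes was not tested. Signal over background limits the 32 untested members, 29 of them dim in all groups, and the size of both large losses.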
